A study of Zea mays with 9 samples.

Results

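Seedlings of the maize heterozygote P1-ww714/B73 were compared with seedlings of the inbred line B73 across all genes. The comparison used 6 of the 9 libraries of the study, 3 of P1-ww714/B73 and 3 of B73, and the 3 libraries of P1-ww714 entered the fit so that the spread between samples was estimated over all 9. All samples were labelled as whole seedling tissue of 14 days, grown in soil in a chamber lit for 15 h a day and dark for 9 h, and none was labelled as treated. The labels number the samples of a genotype without naming separate plants, and the spread that the p-values use could therefore be technical. Of 39656 gene identifiers in the deposited table, 22544 had enough counts to be tested and 9391 had no count in any library.

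The gene p1 encodes a MYB regulator of red flavonoid pigment in the cob and pericarp, and P1-ww714 is one of its alleles. From knowledge of this material and not from the labels, the chromosome that carries P1-ww714 also carries a tandem duplication of a stretch of chromosome 1 with an end at p1. A gene inside the stretch is then present in 3 doses in P1-ww714/B73, against 2 doses in B73, so a transcript level that follows dose would be 1.5-fold higher, which is 0.58 on the log2 scale. In most of the genome both genotypes have the same dose. The study title names the effect of gene dose as its question.

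The p1 transcript itself was close to undetected in seedlings. It had 2, 1 and 1 reads in P1-ww714/B73 replicates 1, 2 and 3, against 1, 0 and 1 reads in the B73 replicates, and it was not tested. No fold is given for such counts, so p1 could not serve as a check of the genotype labels. The libraries held 11504948, 16189684 and 9486044 counted reads in P1-ww714/B73, against 12201558, 12114433 and 9668982 in B73. No 2 replicates of a genotype were within sampling noise of each other, with a chi-square of 6.62 to 19.0 per gene.

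One heterozygote library, replicate 1 of P1-ww714/B73, differed most from the rest. It held 22.2% of the squared deviation of all tested genes from their genotype means, against 6.31% to 15.1% in each of the other 8 libraries, where equal shares would be 11.1%. Its mean correlation with the others was 0.965, against 0.974 to 0.982 for the rest. Results below are therefore given with and without it.

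Between the genotypes, 25 genes rose in P1-ww714/B73 and 0 fell, by edgeR's quasi-likelihood test with Benjamini-Hochberg adjustment at 0.05. The 25 are 0.111% of the tested genes, and 14 of them lay in the duplicated segment described below. Without adjustment, 327 genes had p under 0.05 in the higher direction and 258 in the lower one, and DESeq2 called 72 higher (0.319%) and 1 lower (0.00444%). A fit on the 6 libraries of these genotypes alone called 0 genes, with 513 at an unadjusted p under 0.05, so the calls rest on the spread estimated with the P1-ww714 libraries. The count was 20 without P1-ww714/B73 replicate 1, 10 without replicate 2 and 7 without replicate 3. Leaving out B73 replicate 1, 2 or 3 gave 12, 10 or 6 calls, and leaving out P1-ww714 replicate 1, 2 or 3 gave 14, 11 or 14. With DESeq2 and without P1-ww714/B73 replicate 1, 74 genes were higher (0.324%) and 3 lower (0.0131%). limma voom with library quality weights, which gave that replicate a weight of 0.430 and the others 0.680 to 1.99, called 36 higher (0.16%) and 0 lower.

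In all 25 genes every P1-ww714/B73 library was above every B73 library. Over all tested genes, 3.47% showed this pattern in the higher direction and 3.37% in the lower one. The 25 were chosen by a test on these libraries, so their separation largely follows from the choice. Their fitted folds ran from 1.54 to 22.7. Only 2 of the 25 had a gene symbol, both in the segment. Of the 25 genes, 14 lay in the segment, 2 elsewhere on chromosome 1 and 1 on chromosome 2. The other 8 were not placed by the reference table, so whether they lie in the segment is not known.

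MSRB5.1 (GRMZM2G577677, chromosome 1), a methionine sulfoxide reductase that repairs oxidised methionine in proteins, had 108, 97.0 and 99.4 CPM (read counts scaled to library depth) in P1-ww714/B73, against 52.4, 59.4 and 51.0 CPM in B73. All 3 heterozygote libraries were well above the B73 range. The fold was 1.87 (log2 0.90 ± 0.11 SE), with an edgeR adjusted p of 0.0109. The adjusted p was 0.0303 without P1-ww714/B73 replicate 1 and 1.83e-11 to 0.128 over all alternatives.

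sod4 (GRMZM2G169890, chromosome 1), which encodes a copper/zinc superoxide dismutase that removes superoxide, had 162, 175 and 166 CPM in P1-ww714/B73, against 88.0, 100.1 and 80.0 CPM in B73. The groups did not overlap, and replicate 1 of the heterozygote was the lowest of its group by a small margin. The fold was 1.88 (log2 0.91 ± 0.12 SE), with an edgeR adjusted p of 0.0188. Without that replicate the adjusted p was 0.0343, and it ranged from 5.13e-10 to 0.136 over the alternatives.

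The other called genes carried an identifier and no symbol, so no role is given for them. GRMZM2G394212, not placed, had the smallest p, with 42.8, 44.7 and 48.4 CPM in P1-ww714/B73, against 21.0, 21.8 and 22.5 CPM in B73. It was 2.08-fold higher (log2 1.06 ± 0.10 SE, edgeR adjusted p 0.00671), and neither group spread by more than a few CPM. GRMZM2G023715, in the segment, had 103, 89.2 and 77.5 CPM in P1-ww714/B73, against 42.1, 37.8 and 36.1 CPM in B73. Replicate 1 was the highest of the heterozygote libraries there, and the log2 fold was 1.22 with it and 1.11 without it.

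Some called genes were close to silent in B73. The B73 mean was under 2 CPM in 7 of the 25. GRMZM2G308666, in the segment, had 17.0, 16 and 13.4 CPM in P1-ww714/B73, against 1.56, 2.18 and 0.504 CPM in B73, a log2 fold of 3.40 and the highest of any segment gene. GRMZM2G123866, on chromosome 2, had 69, 98 and 73 reads in P1-ww714/B73, against 8, 8 and 0 reads in B73. GRMZM2G351248 had 9.65, 5.85 and 6.54 CPM in P1-ww714/B73, against 0.623, 1.34 and 0.605 CPM in B73. GRMZM2G343636 had 7.39, 5.22 and 5.91 CPM in P1-ww714/B73, against 1.40, 1.09 and 0.706 CPM in B73. In these last 2 genes replicate 1 was the highest heterozygote library, and without it both were still called.

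The 2 lowest of these genes rest on few reads. GRMZM2G552469 had 32 reads over the 3 P1-ww714/B73 libraries, against 1 read over the 3 B73 libraries, a ratio of 30.4 after scaling with a 95% counting interval of 5.08 to 1239. GRMZM5G824201 had 99 reads in P1-ww714/B73, against 9 reads in B73, a ratio of 10.5 with an interval of 5.29 to 23.5. These intervals cover counting error only.

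Outside the segment on chromosome 1, GRMZM2G459563 had 23.0, 18.7 and 25.2 CPM in P1-ww714/B73, against 8.26, 9.58 and 6.35 CPM in B73, a fold of 2.74 (edgeR adjusted p 0.0177). GRMZM2G110000 had 10.2, 10.1 and 13.3 CPM in P1-ww714/B73, against 4.60, 3.86 and 4.94 CPM in B73, a fold of 2.50 (edgeR adjusted p 0.0312). The 2 genes lay within 100 tested genes of the segment, 1 on each side of it.

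**Figure D1:**
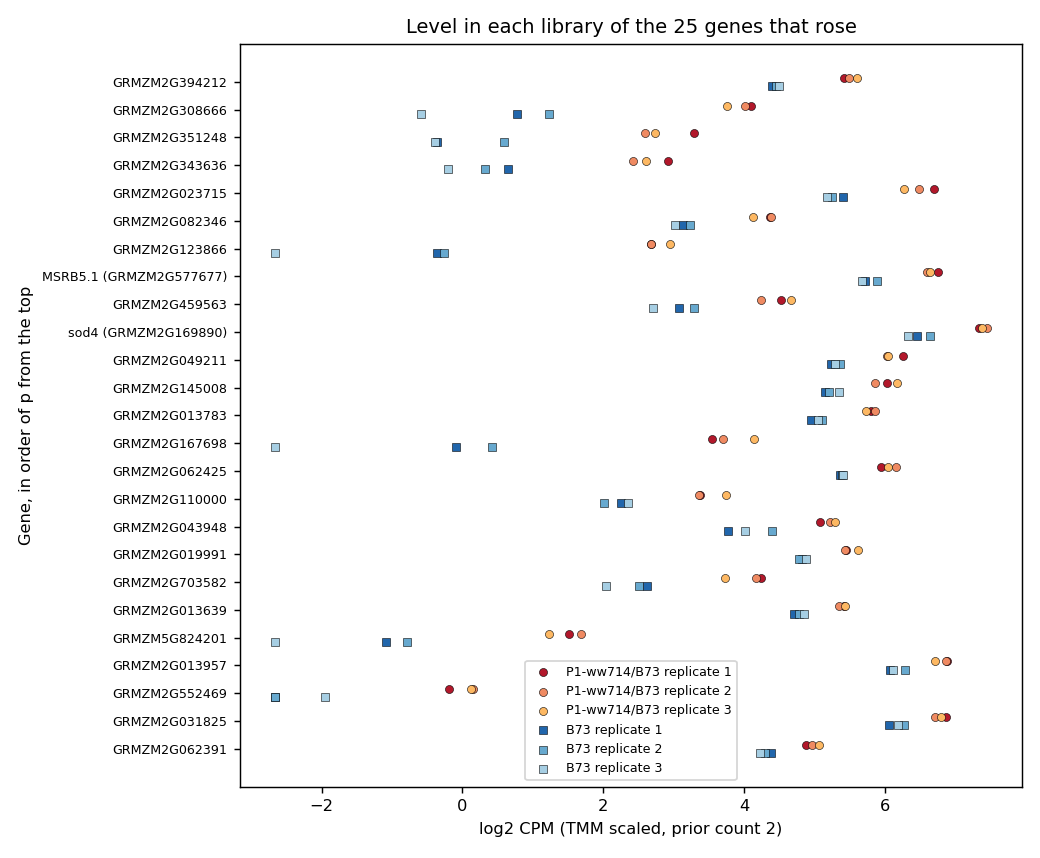
Level of each of the 25 genes that rose, 1 row per gene in order of p, as log2 CPM with a prior count of 2. Circles are the 3 P1-ww714/B73 libraries and squares the 3 B73 libraries, and in every row the circles lie to the right of all squares, with the dark red circle of replicate 1 on the same side as the others.

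Not all of the 25 calls depended on replicate 1. It was above the mean of replicates 2 and 3 in 14 of the 25 genes and lay between those replicates in 8. Its departure from that mean ran from -0.37 to 0.63 on the log2 scale, and leaving it out moved the fitted log2 folds by 0.0031 to 0.246. The 25 were chosen by a test that used this replicate, so its small departure from replicates 2 and 3 partly describes the choice. Without replicate 1, 16 of the 25 were called again, 9 were not, and 4 other genes were added. That makes 20 calls or 0.0876% of the genes then tested. The 9 genes lost had an adjusted p of at most 0.104. Of the 25 genes, 5 were called whichever of the 9 libraries was left out: GRMZM2G394212, GRMZM2G308666, GRMZM2G351248, GRMZM2G343636 and GRMZM2G123866.

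The 4 genes added without replicate 1 had a level in it below that of both other heterozygote libraries. GRMZM2G399320, not placed, had 33.8, 58.6 and 57.6 CPM in P1-ww714/B73, against 30.6, 30.2 and 30.2 CPM in B73. Replicate 1 was close to B73 and replicates 2 and 3 were not, and the edgeR adjusted p was 0.542 with replicate 1 and 0.0120 without it, with 3.24e-08 as the lowest and 1 as the highest value over the alternatives. The other added genes lie in the duplicated segment described below. GRMZM2G144995 had 24.8, 72.7 and 59.5 CPM in P1-ww714/B73, against 33.7, 40.7 and 36.4 CPM in B73, so that replicate 1 lay below all B73 libraries. GRMZM2G102548 and GRMZM2G174696 had log2 folds of 0.87 and 0.69 with replicate 1 and 1.11 and 0.80 without it.

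The genes that DESeq2 called lower, named here after their values were seen, did not pass edgeR's test in either fit. With all libraries DESeq2 called GRMZM2G159110 (chromosome 1), which had 1.35, 1.59 and 1.76 CPM in P1-ww714/B73, against 7.09, 2.86 and 4.03 CPM in B73 (DESeq2 adjusted p 0.0438, edgeR adjusted p 0.269). The 3 that DESeq2 called without replicate 1, and not with it, had a level in that library close to B73. GRMZM2G137535 (chromosome 6) had 38.1, 17.7 and 9.96 CPM in P1-ww714/B73, against 38.2, 38.6 and 28.6 CPM in B73. GRMZM2G092877 (chromosome 2) had 6.40, 2.16 and 1.76 CPM in P1-ww714/B73, against 7.79, 6.47 and 4.84 CPM in B73. AC205608.4_FG004 had 99.7, 70.9 and 56.5 CPM in P1-ww714/B73, against 99.7, 119.6 and 108.7 CPM in B73. DESeq2 adjusted p-values without replicate 1 were 0.00280, 0.00121 and 0.0442 for these 3 genes, each with 1 as the highest adjusted p over the alternatives.

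The duplicated segment was taken as 131 consecutive tested genes of chromosome 1. Its bounds were set on every other gene in the comparison of P1-ww714 with B73, which shares the B73 libraries with the present one, so those genes are no independent check. The 65 genes that did not set the bounds are given beside the whole. Over the 131 genes the median log2 fold of P1-ww714/B73 over B73 was 0.51, which is 1.42-fold, and over the 65 genes it was 0.52, which is 1.43-fold. The same median over all 22544 tested genes was -0.0014. Without replicate 1 the medians were 0.55 and 0.53.

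Each heterozygote library showed this shift. The median of the 131 genes relative to the B73 mean was 0.49, 0.55 and 0.52 on the log2 scale in P1-ww714/B73 replicates 1, 2 and 3, against -0.01, 0.04 and -0.02 in the B73 replicates. In the 65 genes the medians were 0.47, 0.52 and 0.54 in P1-ww714/B73, against -0.02, 0.04 and -0.02 in B73. Replicate 1 was close to the other heterozygote libraries here, and all 3 heterozygote medians were far above those of B73.

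In the segment, 87 of 131 genes (66.4%) had every P1-ww714/B73 library above every B73 library, against the 3.47% of all tested genes given above, and 2 had the reverse. In the 65 genes the count was 43 (66.2%). A log2 fold above 0 was found in 121 of the 131, against 49.6% of all tested genes. By edgeR's adjusted p, 14 segment genes rose (10.7%, against 0.111% of all tested genes) and 0 fell. The count of 14 became 10 without replicate 1 of P1-ww714/B73, 4 and 3 without its replicates 2 and 3, and 4, 5 and 1 without B73 replicates 1, 2 and 3. Leaving out P1-ww714 replicate 1, 2 or 3 gave 7, 5 or 7, and 0 were called in the fit on the 6 libraries alone. DESeq2 called 43 with replicate 1 and 45 without it.

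Single segment genes varied around the median. The middle of the 131 log2 folds ran from 0.33 to 0.66 (quartiles) and the whole range from -0.81 to 3.40. Folds of at least 1.5 were found in 51 genes and folds of at least 2 in 8, against 357 and 67 of all 22544 tested genes. The 95% interval of the log2 fold, not adjusted over genes, held the 0.58 of 3 doses over 2 and excluded 0 in 81 genes. It held 0 and ended below 0.58 in 12 and held both in 24. It lay above 0.58 in 10, between 0 and 0.58 in 2, and below 0 in 2. Of 15571 placed genes outside the segment, 99 had an interval that held 0.58 and excluded 0. There 11973 held 0 and ended below 0.58, 3334 held both, 4 lay above 0.58, 24 lay between 0 and 0.58, and 137 lay below 0.

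**Figure D2:**
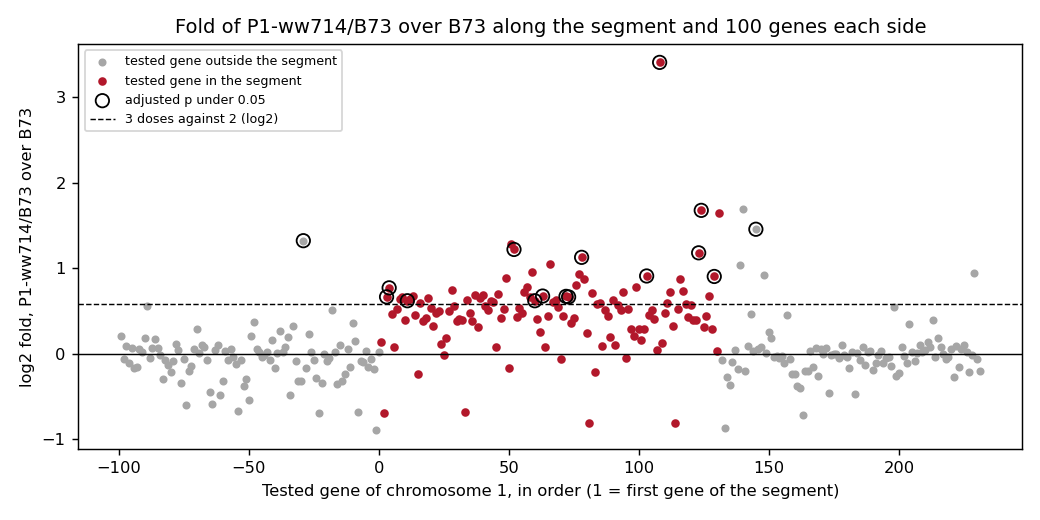
Log2 fold of P1-ww714/B73 over B73 for each tested gene of chromosome 1, in order along the chromosome, from 100 genes before the segment to 100 genes after it. Red points are the 131 segment genes, with a median of 0.51 near the dashed line at 0.58, grey points are neighbours scattered around 0, and rings mark the genes with an adjusted p under 0.05.

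Flanking genes had medians near 0. The 300 tested genes before the segment had a median log2 fold of -0.04, with 12 above in every library and 31 below. The 300 after it had a median of 0.00, with 10 above and 13 below. The 31 genes are 10.3% of the flank, against 3.37% of all tested genes in that direction. Median log2 folds of chromosomes 2 to 10 ran from -0.0038 to 0.011.

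Segment genes with a symbol included regulators, enzymes and transporters. PhyB1 (GRMZM2G124532), a phytochrome that senses red and far-red light, had 108, 102 and 99.6 CPM in P1-ww714/B73, against 59.1, 68.3 and 72.0 CPM in B73. The groups did not overlap, and the log2 fold was 0.64 ± 0.10 (SE) with an edgeR adjusted p of 0.0516, just short of a call. Without replicate 1, its highest library, the adjusted p was 0.108, and over the alternatives it ran from 3.66e-06 to 0.327.

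les22 (GRMZM2G044074), a uroporphyrinogen decarboxylase of the chlorophyll and heme pathway, had 253, 333 and 286 CPM in P1-ww714/B73, against 126, 199 and 176 CPM in B73 (log2 fold 0.80, edgeR adjusted p 0.498). CaM1 (GRMZM2G152891), a calmodulin that binds calcium, had 159, 185 and 181 CPM in P1-ww714/B73, against 127, 125 and 106 CPM in B73 (log2 fold 0.55, edgeR adjusted p 0.164). cipk31 (GRMZM2G174896), a protein kinase of calcium signalling, had 401, 398 and 420 CPM in P1-ww714/B73, against 247, 326 and 365 CPM in B73 (log2 fold 0.38). None of these 3 passed edgeR's test, although in each the groups did not overlap. DESeq2 called les22 (adjusted p 0.0423) and CaM1 (adjusted p 0.00125) and did not call cipk31. Over the alternatives the adjusted p ran from 0.0183 to 1 for les22, from 0.000479 to 0.757 for CaM1 and from 0.994 to 1 for cipk31.

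The potassium transporter gene HAK8 (GRMZM2G173387) had 88.0, 99.3 and 98.3 CPM in P1-ww714/B73, against 77.4, 66.3 and 69.9 CPM in B73 (log2 fold 0.42). nad1 (GRMZM2G018941) had 145, 168 and 166 CPM in P1-ww714/B73, against 108, 132 and 120 CPM in B73 (log2 fold 0.42 or 0.48 without replicate 1). Replicate 1 was the lowest heterozygote library in both. The genes GLK17, bZIP52 and ZBP14, named after families of transcription factors, had log2 folds of 0.54, 0.50 and 0.48. DESeq2 called GLK17 (adjusted p 0.000545, range 0.000545 to 0.552 over the alternatives) and bZIP52 (adjusted p 0.0166, range 0.0166 to 0.942), which edgeR did not call. ZBP14 (GRMZM2G018728) had 74.8, 98.8 and 92.7 CPM in P1-ww714/B73, against 58.7 to 67 CPM in B73. Replicate 1 was its lowest heterozygote library, and its log2 fold without that replicate was 0.59. With all libraries, neither edgeR nor DESeq2 called ZBP14, HAK8 or nad1 (DESeq2 adjusted p 0.134, 0.120 and 0.384). Over the alternatives their lowest adjusted p was 0.00241, 0.0831 and 0.175.

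RPS21 (GRMZM2G134109), named as a ribosomal protein, was the member of these 12 symbol-bearing genes whose groups overlapped. It had 30.6, 70.1 and 42.6 CPM in P1-ww714/B73, against 25.1, 39.3 and 29.0 CPM in B73. Its log2 fold was 0.62 with replicate 1 and 0.86 without it, and it did not pass the test either way.

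In the segment, 10 genes had a log2 fold below 0, and none of them passed edgeR's test. sus2 (GRMZM2G318780), a sucrose synthase that cleaves sucrose, had 7.03, 5.22 and 5.91 CPM in P1-ww714/B73, against 11.6, 9.83 and 10.4 CPM in B73 (log2 fold -0.81, edgeR adjusted p 0.372). TPS8 (GRMZM2G038153) had 23.0, 24.1 and 20.1 CPM in P1-ww714/B73, against 41.7, 41.5 and 34.6 CPM in B73 (log2 fold -0.81). These are the 2 segment genes in which all heterozygote libraries were below all B73 libraries. The log2 fold of GRMZM2G017536 was -0.70 with replicate 1 and -0.22 without it. This gene had 2.25, 14.4 and 17.3 CPM in P1-ww714/B73, against 20.6, 13.4 and 21.3 CPM in B73.

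In more genes than any other library, P1-ww714/B73 replicate 1 lay far below the rest. It was the lowest of the 9 libraries by at least 1 on the log2 CPM scale in 453 genes (2.01% of those tested), against 3 to 58 genes in the other libraries. It was the highest by that margin in 0 genes, against 0 to 11 in the others. Against the mean of replicates 2 and 3 it was at least 2-fold lower in 996 genes (4.42%) and at least 2-fold higher in 522 (2.32%). The same counts were 93 and 511 for replicate 2 against the other heterozygote libraries, and 792 and 399 for replicate 3.

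**Figure D3:**
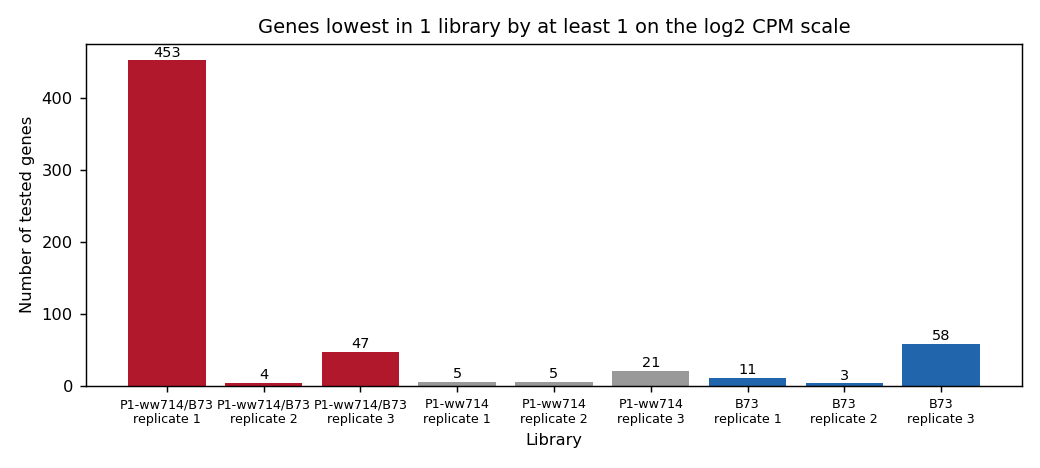
Number of tested genes in which 1 library was the lowest of the 9 by at least 1 on the log2 CPM scale, for 3 libraries each of P1-ww714/B73, P1-ww714 and B73. The bar of P1-ww714/B73 replicate 1 stands at 453 and the others at 3 to 58.

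The 453 genes were spread over the chromosomes. Of the 326 with a place, 18.1% were on chromosome 1, against 15.9% of all placed tested genes, and 1 was in the duplicated segment, the gene GRMZM2G017536 described above. They were lower in level than most genes, with a median average log2 CPM of 2.64, against 4.07 over all tested genes. They made up 0.137% of the CPM of replicate 1, against 0.483% to 0.688% in the other 8 libraries. Their median log2 fold of P1-ww714/B73 over B73 was -0.43 with replicate 1 and 0.0066 without it. The genes were chosen for a low level in replicate 1, so that share and the change in the median on leaving it out are descriptions of the choice. By edgeR's adjusted p, 0 of the 453 were called either way.

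Genes of cell division were among those with a symbol. Dividing cells of the shoot tip and young leaf bases duplicate their DNA with replication enzymes, wrap it with newly made histones, and pass through the cycle under cyclins and the kinases they bind. In a whole seedling these cells are a small part of the tissue, and in bulk RNA fewer cells of a type and less RNA per cell cannot be told apart. How much of each tissue each sample held is not given in the labels.

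cyclin8 (GRMZM2G138886) had 0.541, 11.1 and 11.6 CPM in P1-ww714/B73, against 12.8, 6.97 and 13.2 CPM in B73. cyc3 (GRMZM2G073671), also a cyclin, had 0.902, 11.7 and 14.1 CPM in P1-ww714/B73, against 12.6, 9.41 and 14.8 CPM in B73. Both transcripts were near 1 CPM or lower in replicate 1 and within the B73 range in replicates 2 and 3. The departure of replicate 1 from the mean of replicates 2 and 3 was -4.04 on the log2 scale for cyclin8 and -3.62 for cyc3.

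rbr3 (GRMZM2G033828), a retinoblastoma-related regulator of the entry into DNA synthesis, had 2.43, 19.0 and 18.5 CPM in P1-ww714/B73, against 20.8, 12.4 and 19.5 CPM in B73. The kinesin genes kin11 (GRMZM2G436981) and krp13 (GRMZM2G034828), which encode motors that move along microtubules, showed the same arrangement. kin11 had 2.34, 19.3 and 21.5 CPM in P1-ww714/B73, against 22.1, 13.9 and 29.1 CPM in B73. krp13 had 4.42, 33.2 and 39.7 CPM in P1-ww714/B73, against 47.7, 29.0 and 47.0 CPM in B73. The other genes named by this rule were HMG5, CSLD1, cha101, nfd106 and kin2, with departures of -3.21, -2.91, -2.89, -2.87 and -2.83.

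Of the 453 genes, 59 had a symbol, and the following were chosen from them after their values were seen. The replication helicase subunit genes MCM6 (GRMZM2G021069) and MCM7 (GRMZM2G065205) had 5.41 and 3.88 CPM in replicate 1. MCM6 had 31.8 and 32.7 CPM in replicates 2 and 3, against 29.6, 21.8 and 29.2 CPM in B73. The sliding clamp gene pcna2 (GRMZM2G108712) had 5.77, 34.4 and 31.7 CPM in P1-ww714/B73, against 34.6, 23.4 and 24.6 CPM in B73. TUB1 (GRMZM2G164696), a beta tubulin, had 12.3, 82.2 and 71.1 CPM in P1-ww714/B73, against 95.2, 56.4 and 73.5 CPM in B73.

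Genes with other roles were in the same set. AN3 (GRMZM2G180246), named after a coactivator of leaf cell proliferation known from Arabidopsis, had 0.271, 4.07 and 3.32 CPM in P1-ww714/B73, against 7.56, 2.27 and 4.74 CPM in B73. glu1 (GRMZM2G016890), a beta-glucosidase that releases benzoxazinoid defence compounds, had 55.6, 185 and 155 CPM in P1-ww714/B73, against 150, 183 and 166 CPM in B73. CPN60II (GRMZM2G416120), named as a chaperonin, had 28.6, 92.3 and 82.1 CPM in P1-ww714/B73, against 60.6, 62.3 and 79.1 CPM in B73. In all 3 genes replicate 1 was below every other heterozygote and B73 library.

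**Figure D4:**
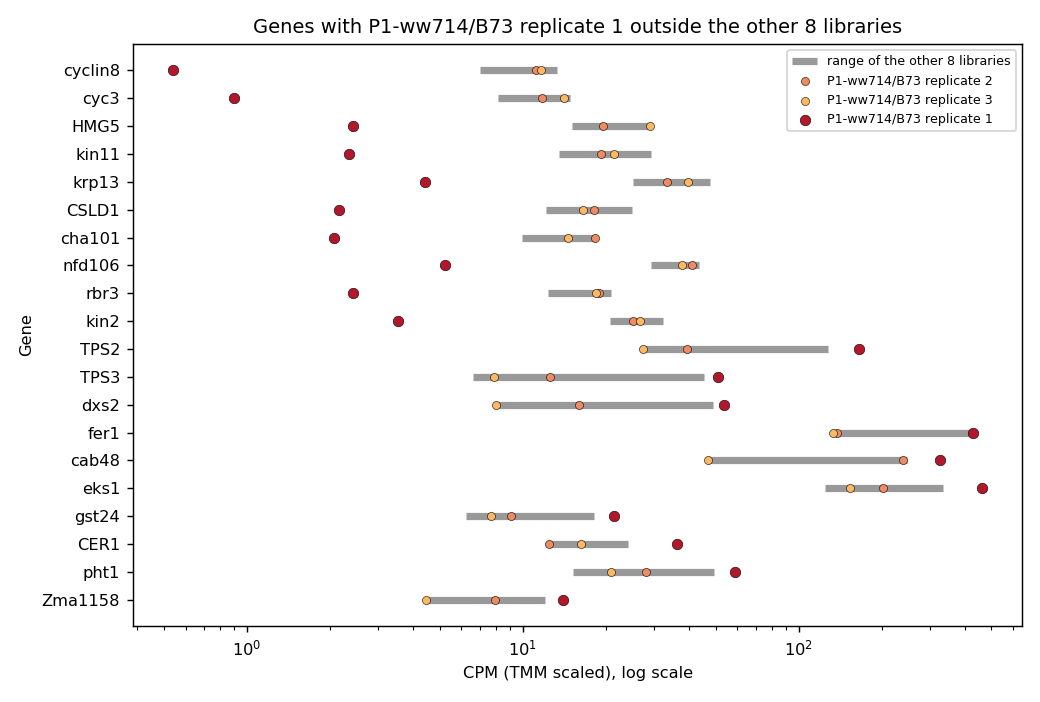
CPM on a log scale of the 20 named genes in which P1-ww714/B73 replicate 1 lay outside the range of the other 8 libraries. Dark red points are replicate 1, lighter points replicates 2 and 3 of P1-ww714/B73, and grey bars the range of the other 8 libraries. For cyclin8 replicate 1 is at 0.541 CPM and the bar runs from 6.97 to 13.3 CPM.

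Where replicate 1 was the highest library, replicates 2 and 3 were often low and the B73 libraries spread widely. fer1 (GRMZM2G325575), a ferritin that stores iron, had 429, 138 and 133 CPM in P1-ww714/B73, against 425, 170 and 212 CPM in B73. dxs2 (GRMZM2G493395), of the first step of plastid isoprenoid synthesis, had 53.5, 16 and 7.99 CPM in P1-ww714/B73, against 49.0, 28.1 and 8.47 CPM in B73. TPS2 (GRMZM2G046615) had 166, 39.3 and 27.2 CPM in P1-ww714/B73, against 128, 55.2 and 34 CPM in B73. In these 3 genes the highest of these 6 libraries was replicate 1 of P1-ww714/B73, followed by replicate 1 of B73. P1-ww714 replicates 1, 2 and 3 had 323, 138 and 172 CPM for fer1 and 26.2, 16.5 and 9.32 CPM for dxs2. For TPS2 they had 95.5, 37.2 and 27.2 CPM, so replicate 1 was the highest P1-ww714 library in these genes too.

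eks1 (GRMZM2G049538), an ent-kaurene synthase of the gibberellin pathway, had 462, 203 and 153 CPM in P1-ww714/B73, against 335, 276 and 179 CPM in B73. cab48 (GRMZM2G120619), a chlorophyll a/b-binding protein of the light-harvesting antenna, had 325, 239 and 46.9 CPM in P1-ww714/B73, against 128, 181 and 109 CPM in B73. The remaining named genes on this side were GRMZM2G064406 (TPS3), gst24, GRMZM2G066578 (CER1), pht1 and Zma1158, with departures of 2.34, 1.35, 1.33, 1.27 and 1.21. In all named genes on this side except cab48, replicate 1 was the highest library of every genotype, P1-ww714 included. None of the 20 genes passed the test between the genotypes, with or without replicate 1.

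Gene lists put these genes beside the rest of their groups. Of 30 lists matched by symbol, 29 had at least 3 tested members, and over all of them 2 members were called, MSRB5.1 and sod4, both antioxidant genes inside the segment. List members are described by their median log2 fold of P1-ww714/B73 over B73, with -0.0014 as the median over all tested genes.

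Histones were at 545, 1130 and 837 CPM in sum over 11 genes in P1-ww714/B73, against 1134, 847 and 851 CPM in B73. Relative to the B73 mean their median was -1.69, 0.29 and -0.19 in P1-ww714/B73 replicates 1, 2 and 3, against 0.34, -0.12 and -0.13 in B73. Replicate 1 was the lowest of the 9 libraries in 10 of the 11, against 20.5% of all tested genes, and by at least 1 in 6. All 11 had a log2 fold below 0 with replicate 1 and 4 of 11 without it, and the median was -0.25 with it and 0.09 without it. The core histone gene his2a1 (GRMZM2G305046) had 43.7, 189 and 151 CPM in P1-ww714/B73, against 184, 137 and 155 CPM in B73. The linker histone gene hon102 (GRMZM2G401308) had 160, 212 and 156 CPM in P1-ww714/B73, against 232, 165 and 158 CPM in B73, so its replicate 1 was not apart from replicate 3.

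Cell cycle and replication genes followed the same pattern over 20 members. Their median relative to B73 was -1.15, 0.09 and 0.06 in P1-ww714/B73 replicates 1, 2 and 3, against 0.14, -0.19 and 0.13 in B73. Replicate 1 was the lowest library in 17 of the 20 and by at least 1 in 9. A log2 fold below 0 was found in 18 with replicate 1 and 6 without it, with medians of -0.16 and 0.07. The part of dividing cells in the other results of this library was not tested. The most abundant member did not stand apart in replicate 1: SMC3 (GRMZM2G456570), a cohesin subunit, had 157, 143 and 170 CPM in P1-ww714/B73, against 162, 149 and 188 CPM in B73.

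Among 12 kinesin genes, replicate 1 was the lowest library by at least 1 in 5, and their median relative to B73 was -0.22 in it, against -0.10 and 0.04 in replicates 2 and 3. The 12 tubulin genes had medians of -0.10, 0.10 and 0.06 in P1-ww714/B73, against 0.11, -0.01 and -0.05 in B73. Of 4 tested meristem regulators, the medians were -0.16, 0.11 and 0.22 in P1-ww714/B73, against -0.08, 0.00 and -0.06 in B73. Median log2 folds of these lists were -0.13, 0.01 and 0.10 with replicate 1 and -0.08, 0.07 and 0.16 without it.

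Ribosomal protein genes were lower in replicate 1, but in none of them was it 2-fold below all the other libraries. Their median over 25 genes was -0.56, 0.42 and 0.08 in P1-ww714/B73 replicates 1, 2 and 3, against -0.15, 0.18 and -0.01 in B73. Replicate 1 was the lowest of the 9 libraries in 21 of the 25 and by at least 1 in 0. Without it all 25 had a log2 fold above 0 and the median was 0.26, against 17 of 25 and 0.03 with it. By the edgeR test 0 passed either way, with 1 at an unadjusted p under 0.05. Of the 25 genes 1 lies in the duplicated segment, where RPS21 had an unadjusted edgeR p of 0.0462. The gene rps4 (GRMZM2G125271) had 102, 238 and 186 CPM in P1-ww714/B73, against 153, 188 and 163 CPM in B73.

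**Figure D5:**
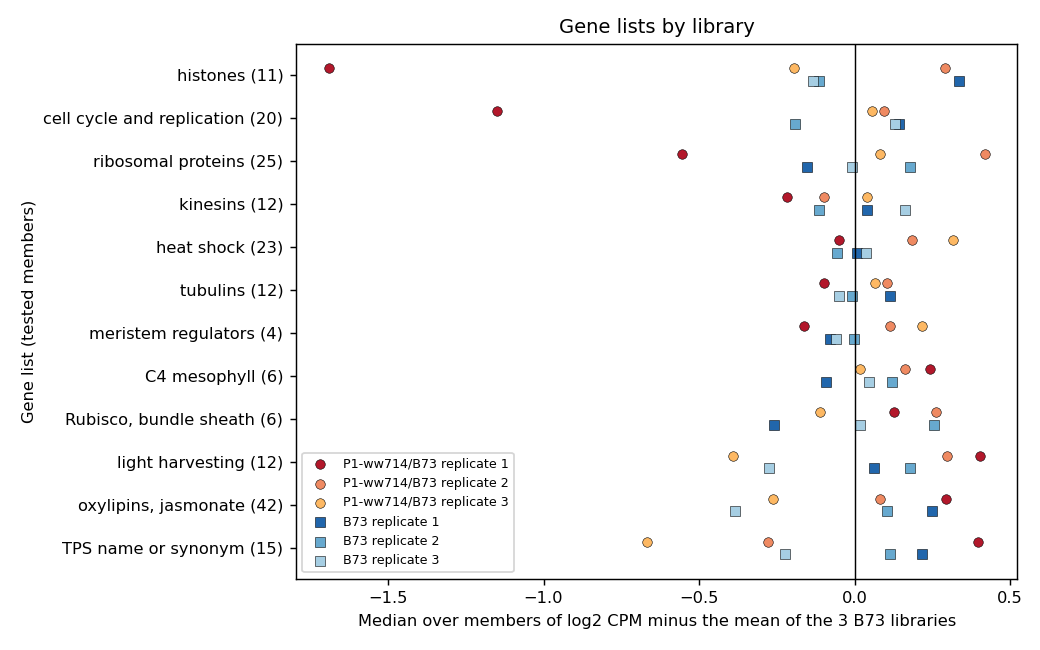
Median over the members of 12 gene lists of log2 CPM minus the mean of the 3 B73 libraries, with the number of tested members in parentheses. Circles are P1-ww714/B73 libraries and squares B73 libraries. Replicate 1 of P1-ww714/B73, in dark red, lies at -1.69 for histones, -1.15 for cell cycle and replication and -0.56 for ribosomal proteins, left of all other points in those rows.

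Photosynthesis genes were abundant in both genotypes. The C4 cycle of maize first fixes carbon in mesophyll cells and releases it to Rubisco in bundle sheath cells. pdk1 (GRMZM2G306345), pyruvate phosphate dikinase of the mesophyll, had 23410 CPM in replicate 1, 19785 and 17950 CPM in replicates 2 and 3, and 17419 to 19785 CPM in B73. me3 (GRMZM2G085019), the NADP-malic enzyme of the bundle sheath, had 4569, 4618 and 3880 CPM in P1-ww714/B73, against 3239, 4948 and 4447 CPM in B73. The median log2 fold of 6 mesophyll genes was 0.16 with replicate 1 and 0.10 without it, and that of 6 bundle sheath genes was 0.07 and 0.06. These leaf cell markers were present in every library, as the seedling label says, and 0 of these 12 genes passed the test. Of the mesophyll genes 2 had an unadjusted edgeR p under 0.05, against 585 of all 22544 tested genes. PPCK1 (GRMZM2G178074), 1 of these 2, had 12.2, 14.1 and 23.1 CPM in P1-ww714/B73, against 6.78, 7.73 and 11.1 CPM in B73. Its log2 fold was 0.95 with replicate 1 and 1.12 without it. Of the 6 mesophyll genes, 4 had a log2 fold above 0 and 2 below 0.

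Light-harvesting genes varied more within genotypes. Their median over 12 genes was 0.40, 0.30 and -0.39 in P1-ww714/B73 replicates 1, 2 and 3, against 0.06, 0.18 and -0.27 in B73. lhcb3 (GRMZM2G155216) had 3119, 2870 and 1445 CPM in P1-ww714/B73, against 2651, 2497 and 1543 CPM in B73. Replicate 3 was the lowest library of P1-ww714/B73 and of B73 in this gene. The list median was 0.12 with replicate 1 and -0.03 without it, with 11 and 4 of 12 members above 0.

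Oxylipin and jasmonate genes, which act in wound and defence signalling, had medians of 0.29, 0.08 and -0.26 over 42 members in P1-ww714/B73 replicates 1, 2 and 3, against 0.25, 0.10 and -0.38 in B73. lox10 (GRMZM2G015419), a lipoxygenase, had 3341, 2298 and 1481 CPM in P1-ww714/B73, against 2704, 2141 and 1321 CPM in B73. The median log2 fold was 0.02 with replicate 1 and -0.12 without it. The 15 genes with a TPS name or synonym, among them eks1, which RefSeq also lists as tps1, had medians of 0.40, -0.28 and -0.67 in P1-ww714/B73, against 0.22, 0.11 and -0.22 in B73. Their median log2 fold was -0.08 with replicate 1 and -0.43 without it, and without it all 15 were below 0. Of the 15 genes 1 lies in the duplicated segment. None of these genes passed the test.

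Heat shock genes (23) had a median log2 fold of 0.14 with replicate 1 and 0.34 without it. For flowering genes (18) the medians were -0.13 and -0.26, for clock genes (3) -0.05 and -0.18, and for nitrate genes (5) 0.25 and 0.12. For chlorophyll synthesis genes (4, of which les22 and DVR lie in the segment) they were 0.52 and 0.49, and for antioxidant genes (16) 0.08 and 0.08. For aquaporins (24, of which 1 lies in the segment) they were 0.13 and 0.05. For glutathione transferases (30) they were 0.02 and -0.09, and for defence genes (11) -0.02 and -0.13. The remaining lists were flavonoid, benzoxazinoid, auxin, cytokinin, cell wall, sucrose and epidermis genes and the MYB with bHLH and the WRKY with NAC regulators. Each had a median between -0.06 and 0.10 both ways, and 1 of the sucrose genes lies in the segment. Of the root markers 1 was tested and gave no median.

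Leaving out replicate 1 changed which folds were large. At least 2-fold lower values in P1-ww714/B73 were fitted for 61 genes with it and 142 without it, of which 39 were in both. At least 2-fold higher values were fitted for 67 and 68 genes, of which 51 were in both. For the 1.5-fold limit the lower counts were 507 and 670, with 265 in both, and the higher counts 357 and 336, with 235 in both. A single library at 0 lowers a mean of 3 by at most 0.58 on the log2 scale. Its presence lowered the fitted fold by more than 0.5 in 73 genes, and it raised the fold by that much in 258. None of these fold counts is a count of tested calls. They are not given for leaving out replicate 2 or 3, so what a smaller group alone would change cannot be told from them.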

How the data were processed

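The authors deposited raw whole-number counts per gene for 9 libraries of total RNA, 1 column per library. TopHat and HTSeq are named in the submitters' processing notes, with versions not given. Genome build, annotation and strand setting: not given in the sources used here. Counts of overlapping or antisense genes and of close paralogs are therefore uncertain, and no coordinates are printed. Names and gene order came from RefSeq for Zm-B73-REFERENCE-NAM-5.0, which matched 18774 identifiers (47.3%, holding 82.2% of counts), placed 18755 and named 2540.

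Counts were filtered with filterByExpr (minimum count 10), scaled by TMM and tested with edgeR 4.0.16 (quasi-likelihood F test, 1 mean per genotype, all 9 libraries, Benjamini-Hochberg at 0.05) in R 4.3.3. CPM values are TMM scaled, and log2 CPM has a prior count of 2. DESeq2 1.42.0, limma 3.58.1 voom with library weights, and other filters, scalings and left-out libraries were alternatives. The procedure was tested on simulated data. The segment was the stretch of neighbouring chromosome 1 genes that maximised the summed log2 fold, less 0.5 per gene, in P1-ww714 against B73 at even positions, with folds limited to -1 to 2.

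Named genes were all called genes, the 12 most abundant segment genes with a symbol, the most abundant list members, and up to 10 genes on each side with a symbol, an average log2 CPM of at least 3 and P1-ww714/B73 replicate 1 outside the other 8 libraries, ordered by its departure from replicates 2 and 3. The lists, rules and segment were chosen with earlier results of these data known. Depth was 9486044 to 16189684 reads per library. With 3 samples a group, an exact permutation test of a single gene cannot go below p = 0.10.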

Additional observations from a re-analysis of the deposited data

How the results depend on the processing

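The median log2 fold of the 65 segment genes kept its sign under every alternative tried, at 0.46 without P1-ww714/B73 replicate 2 and at most 0.53 with any library left out. The counts of calls depended on the spread estimate and on single libraries. The 25 calls, 14 of them in the segment, became 0 and 0 in the fit on P1-ww714/B73 and B73 alone (513 genes at an unadjusted p under 0.05), 0 and 0 there without P1-ww714/B73 replicate 1 (727 genes), 73 and 43 with DESeq2, and 77 and 45 with DESeq2 without that replicate, an alternative chosen after seeing the data. With each of the 9 libraries left out in turn, 6 to 20 genes and 1 to 10 segment genes were called. A threshold of 0.01 left 7 calls. Without an expression filter there were 37 calls and with voom library weights 36, and RLE factors gave 24 and TMM without the segment 25.

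Deviations from the genotype means correlated between P1-ww714/B73 and B73 at 0.15, -0.05 and 0.50 for numbers 1, 2 and 3. Since not every value was above 0.1, replicate numbers were not taken to pair the samples. Not every sample correlated best with its own number, as P1-ww714/B73 replicate 1 had 0.25 with B73 replicate 2. P1-ww714/B73 replicate 3 did, with -0.28 and -0.27 for B73 replicates 1 and 2. P1-ww714 was not part of this check. With the replicate number as a block, 18 genes and 8 segment genes were called. Of the 25 calls 15 stayed and 10 were lost, and 3 other genes were added.

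Log2 folds of P1-ww714/B73 over B73 were followed for 84 of the named genes over all alternatives. Of these folds, 1264 kept their direction and their side of the threshold, 193 lost the call, 29 gained one and 99 turned direction. Those 99 were in 30 genes, none of them among the 25 called, and 20 genes turned direction when P1-ww714/B73 replicate 1 was left out. The cause was not tested. Values of the 30 genes follow, where the 2 fits without replicate 1 are the one on P1-ww714/B73 and B73 alone and the one with DESeq2, in that order, and ranges are over the 9 libraries left out in turn.

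cyclin8 had -0.49 with all libraries, against 0.049 and 0.053 in the 2 fits without replicate 1 and -0.88 to 0.052 with 1 library left out. cyc3 had -0.46 with all libraries, against 0.066 and 0.071 in the 2 fits without replicate 1 and -0.90 to 0.069 with 1 library left out. HMG5 had -0.46 with all libraries, against 0.042 and 0.054 in the 2 fits without replicate 1 and -1.04 to 0.047 with 1 library left out. CSLD1 had -0.43 with all libraries, against 0.055 and 0.064 in the 2 fits without replicate 1 and -0.85 to 0.059 with 1 library left out. cha101 had -0.30 with all libraries, against 0.19 and 0.19 in the 2 fits without replicate 1 and -0.82 to 0.19 with 1 library left out. nfd106 had -0.32 with all libraries, against 0.16 and 0.17 in the 2 fits without replicate 1 and -0.73 to 0.16 with 1 library left out. rbr3 had -0.39 with all libraries, against 0.092 and 0.097 in the 2 fits without replicate 1 and -0.77 to 0.096 with 1 library left out. TPS2 had 0.092 with all libraries, against -1.12 and -1.12 in the 2 fits without replicate 1, -0.12 with the block, -0.39 with voom weights and -1.12 to 0.79 with 1 library left out. TPS3 had -0.13 with all libraries, against -1.32 to 0.57 with 1 library left out. dxs2 had -0.16 with all libraries, against -1.23 to 0.48 with 1 library left out. fer1 had -0.20 with all libraries, against -0.99 to 0.29 with 1 library left out. cab48 had 0.55 with all libraries, against -0.091 with voom weights. eks1 had 0.051 with all libraries, against -0.56 and -0.56 in the 2 fits without replicate 1, -0.057 with the block, -0.28 with voom weights and -0.56 to 0.33 with 1 library left out. gst24 had 0.16 with all libraries, against -0.44 and -0.43 in the 2 fits without replicate 1, -0.0046 with voom weights and -0.44 to 0.68 with 1 library left out. CER1 had 0.34 with all libraries, against -0.26 and -0.25 in the 2 fits without replicate 1 and -0.26 to 0.68 with 1 library left out. pht1 had 0.23 with all libraries, against -0.31 and -0.30 in the 2 fits without replicate 1 and -0.31 to 0.65 with 1 library left out. Zma1158 had -0.093 with all libraries, against -0.57 to 0.21 with 1 library left out.

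his2a1 had -0.31 with all libraries, against 0.10 and 0.10 in the 2 fits without replicate 1 and -0.70 to 0.10 with 1 library left out. hon102 had -0.073 with all libraries, against 0.059 with voom weights and -0.23 to 0.12 with 1 library left out. SMC3 had -0.085 with all libraries, against -0.16 to 0.016 with 1 library left out. rps4 had 0.066 with all libraries, against -0.22 to 0.34 with 1 library left out. me3 had 0.049 with all libraries, against -0.041 with voom weights and -0.11 to 0.18 with 1 library left out. lhcb3 had 0.15 with all libraries, against -0.047 and -0.043 in the 2 fits without replicate 1 and -0.050 to 0.43 with 1 library left out. lox10 had 0.21 with all libraries, against -0.12 and -0.12 in the 2 fits without replicate 1 and -0.12 to 0.46 with 1 library left out. MCM6 had -0.20 with all libraries, against 0.26 and 0.26 in the 2 fits without replicate 1 and -0.51 to 0.26 with 1 library left out. MCM7 had -0.34 with all libraries, against 0.12 and 0.12 in the 2 fits without replicate 1 and -0.65 to 0.12 with 1 library left out. pcna2 had -0.19 with all libraries, against 0.26 and 0.27 in the 2 fits without replicate 1, 0.0080 with voom weights and -0.57 to 0.27 with 1 library left out. TUB1 had -0.44 with all libraries, against 0.028 and 0.033 in the 2 fits without replicate 1 and -0.86 to 0.031 with 1 library left out. glu1 had -0.33 with all libraries, against 0.033 and 0.036 in the 2 fits without replicate 1 and -0.66 to 0.034 with 1 library left out. CPN60II had 0.010 with all libraries, against -0.081 with the block and -0.29 to 0.38 with 1 library left out.

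Low counts limit the genes near silence in B73, and 3 samples a group limit every single gene.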
